A study of Mus musculus with 6 samples.

Results

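The genes described here are 10 neuronal genes for the cytoskeleton and for synaptic vesicles: Tubb3, Map2, Dcx, Stmn2, Nefl, Nefm, Gap43, Rph3a, Syt1 and Snap25. They were taken as a named list, matched by Ensembl identifier to symbol, and make up 10 of the 53801 genes counted in each library. The list was chosen with earlier results of these data known, so its counts beside the shares over all genes are description only. All 10 were found in the count tables, and 9 had enough counts to be tested. Stmn2 did not, with 2 to 7 counts in a library. The list does not behave as 1 block in these cells. Gap43 and Map2 were abundant, while Nefl and Stmn2 in both clones and Syt1 in clone 30 had at most 27 counts in a library. With the clone taken into account, edgeR called Rph3a and Syt1 lower at 48 h against untreated, where it called 9.08% of all tested genes lower. It called Dcx higher at 48 h than at 24 h, where it called 12.3% of all genes higher. On treatment group alone it called 0 of the 9 tested genes in each auxin comparison. Between the 2 clones 5 of the 9 tested genes differed, 1 higher and 4 lower in clone 31. Among all tested genes 7.54% were higher and 8.58% lower.

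The libraries came from mouse neural progenitor cells (NPCs), dividing cells of the neural lineage, and their strain is given as BL/6J x CAST-EiJ. Spen-degron embryonic stem cells had been differentiated to NPCs and subcloned, so each clone is a subclone of engineered cells. In all 6 libraries, the untreated ones included, SPEN carried an auxin-inducible degron (SPEN-AID), a tag through which auxin triggers breakdown of the protein. SPEN is an RNA-binding repressor needed for silencing of the X chromosome by Xist. The 3 groups were untreated cells (0 h), cells given auxin at 500 uM for 24 h and cells given it for 48 h, and each group held 1 library of clone 30 and 1 of clone 31. The N2B27 medium held 10 ng/ml of EGF and as much FGF, factors that keep NPCs dividing. The question was what changes before and after depletion of SPEN. No library of auxin-treated cells without the degron was analysed here, so loss of SPEN and auxin itself cannot be told apart. The degron acts on the protein, and counts of RNA do not check the depletion. Because the replicates of a group are the 2 clones, p-values on treatment group alone measure the spread between these clones. With the clone as a term they measure the spread left once the clone difference is taken out, and the comparison of the clones rests on 3 libraries of 1 subclone on each side.

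Neurons carry long axons and dendrites that rest on microtubules and on neurofilaments, and they release transmitter from vesicles that fuse with the membrane through SNARE proteins. Tubb3, Map2, Dcx and Stmn2 encode proteins of the microtubule system, Nefl and Nefm encode neurofilament subunits, and Gap43 encodes a growth cone protein. Syt1, Snap25 and Rph3a encode parts of the release machinery. Several of these genes are used as markers of young or mature neurons, and cultured NPCs of the glial lineage can carry RNA of some of them without being neurons.

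Total counts ran from 24603816 to 43008978 per library, so 3 counts, taken as the floor, equal between 0.0698 and 0.122 CPM (counts per 1000000 counts). The cells carried NPC markers, with Nes between 648 and 1895 CPM and Sox2 between 191.7 and 472 CPM, while Sox1 stayed between 0 and 0.0803 CPM. Neuron markers were low: Nhlh2, Neurod6 and Slc17a6 had 0 counts in every library, and 13 of the 19 listed neuron markers averaged under 1 CPM. The 19 neuron markers summed to between 58.3 and 76.3 CPM in the libraries of clone 30 and to between 41.6 and 47.3 CPM in those of clone 31. Much of that gap was 1 gene, Neurod1. For untreated, 24 h and 48 h it had 13.2, 27.8 and 12.9 CPM in clone 30 and 2.1, 2.75 and 1.55 CPM in clone 31. Elavl4 differed less, with 23.6, 29.4 and 33.9 CPM in clone 30 and 23.0, 23.7 and 32.4 CPM in clone 31. Clone 31 also carried mesenchymal markers at 75.2 to 97.8 CPM in sum, against 4.2 to 6.08 CPM in clone 30. Of 6 tested mesenchymal markers 4 were higher in clone 31 (Col3a1, Dcn, Lum and Pdgfrb) and Acta2 was lower (log2 difference −2.01, edgeR adjusted p = 0.0151), while Col1a1 had −0.14 (0.643) and Col1a2 stayed at or under 0.0647 CPM.

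Levels were compared between genes only per exon length, as counts per 1000 bases of exon and per 1000000 counts (RPKM), over all 6 libraries. Gap43 stood first with 59.5 ± 27.3 RPKM (SD, n = 6) and Map2 second with 56.3 ± 9.63 RPKM. These 2 genes overlapped, since Gap43 was above Map2 in the 3 libraries of clone 30, level with it in clone 31 at 24 h (41.8 against 41.7 RPKM) and below it in clone 31 untreated (33.2 against 49.6 RPKM) and at 48 h (34.0 against 56.3 RPKM). Tubb3 followed with 13.6 ± 5.59 RPKM, and its range of 7.05 to 22.3 RPKM overlapped neither that of Map2 nor that of Rph3a, which had 1.66 ± 1.73 RPKM. From there down the ranges of all neighbours overlapped. Nefm had 0.385 ± 0.22 RPKM, Dcx 0.348 ± 0.177 RPKM, Syt1 0.195 ± 0.273 RPKM and Snap25 0.169 ± 0.0644 RPKM. The lowest levels were 0.0949 ± 0.0599 RPKM for Nefl and 0.023 ± 0.0162 RPKM for Stmn2. Library sizes scaled by the trimmed mean of M-values (TMM) gave the same order of the 10 genes.

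**Figure D1:**
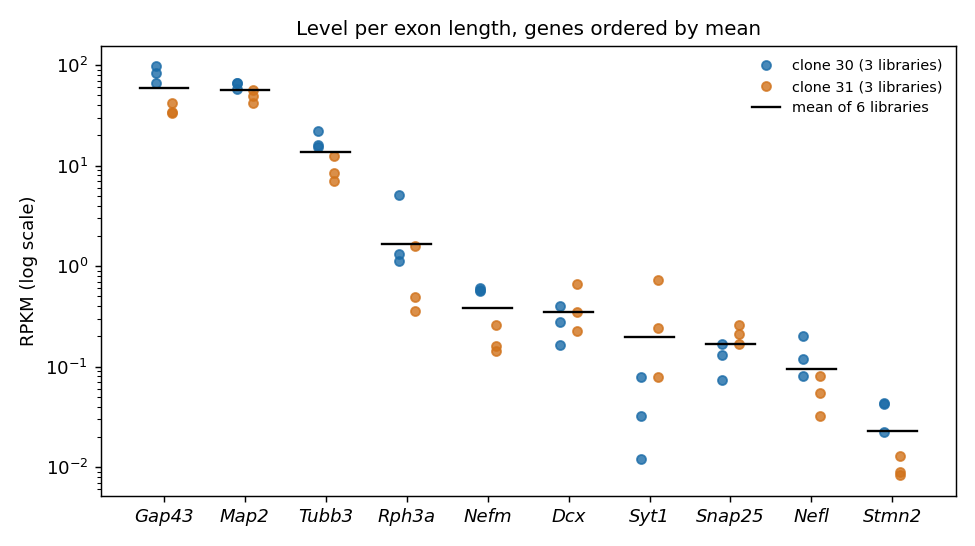
RPKM on a log axis for each of the 10 genes, ordered by mean; points are the 3 libraries of clone 30 and the 3 of clone 31, and bars are means of all 6. Gap43 and Map2 lead at 59.5 and 56.3 RPKM, Tubb3 stands alone below them, and the other genes overlap their neighbours.

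Among the microtubule genes, Tubb3 encodes the neuronal class III beta-tubulin (ENSMUSG00000062380, mm10 chr8:123411424-123422015, plus strand). Its untreated level was 41.2 CPM in clone 30 and 15.7 CPM in clone 31. At 24 h of auxin it was 28.5 and 13.4 CPM, and at 48 h it was 28.5 and 24.1 CPM, in clones 30 and 31. Each level in clone 30 was above each in clone 31, while the 3 groups of auxin time overlapped. Map2, a microtubule-associated protein of dendrites (ENSMUSG00000015222, chr1:66175273-66442583, plus strand), had the highest counts of the list. In clone 30 it stood at 1083, 938.8 and 1043 CPM when untreated, at 24 h and at 48 h, and in clone 31 at 821, 699.2 and 964.3 CPM. Its lowest level in both clones was at 24 h, and its 48 h levels lay above its 24 h levels without overlap.

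Dcx (doublecortin) binds microtubules in migrating young neurons and lies on the X chromosome (ENSMUSG00000031285, chrX:143855842-143933311, minus strand). The counts are summed over both alleles. Untreated, it had 3.49 CPM in clone 30 and 4.4 CPM in clone 31. It was 2.08 and 2.94 CPM at 24 h, and 4.85 and 8.78 CPM at 48 h. Its 3 groups did not overlap, with 24 h lowest and 48 h highest. Stmn2 encodes stathmin-2, a tubulin-binding protein of growing axons (ENSMUSG00000027500, chr3:8509360-8561606, plus strand). It had 6, 5 and 7 counts in clone 30 and 2, 2 and 2 counts in clone 31, for untreated, 24 h and 48 h. All 3 libraries of clone 31 were thus under the floor of 3 counts, and a change over auxin time was not detectable at this depth.

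The neurofilament pair lies side by side on chromosome 14, Nefl for the light subunit (ENSMUSG00000022055, chr14:68083863-68089095, plus strand) and Nefm for the medium subunit (ENSMUSG00000022054, chr14:68082590-68124846, minus strand). The annotations overlap on opposite strands, with 1108 of the 3380 exon bases of Nefl shared. The counting used strand, and 154 genes that lie inside exons of a gene with at least 6000 counts on the other strand had a median of 0.00113 of that gene's counts per base. In 2 of these pairs the ratio was 0.5 or more. Nefm had 3.21, 3.45 and 3.23 CPM in clone 30 and 0.925, 1.54 and 0.867 CPM in clone 31, for untreated, 24 h and 48 h. The clones did not overlap, and within clone 30 the level barely moved. Nefl had 10, 27 and 8 counts in clone 30 (0.401, 0.675 and 0.259 CPM) and 11, 8 and 3 counts in clone 31 (0.275, 0.19 and 0.113 CPM). At these counts its 48 h to untreated ratio had 95% exact intervals of 0.221 to 1.81 in clone 30 and 0.0736 to 1.56 in clone 31, both of which include 1. These intervals and all others here are Clopper-Pearson intervals and cover counting error only.

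Gap43, the growth-associated protein of axon tips (ENSMUSG00000047261, chr16:42248442-42340651, minus strand), had the highest mean level per length, which rests on clone 30. It had 126.4, 146.4 and 97.3 CPM in clone 30 and 50.9, 65 and 54 CPM in clone 31, for untreated, 24 h and 48 h. Every level of clone 30 exceeded every level of clone 31, and both clones were highest at 24 h.

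Rph3a encodes rabphilin-3A, a vesicle protein that binds RAB3 (ENSMUSG00000029608, chr5:120940499-121010092, minus strand). In clone 30 it had 23.1, 5.18 and 5.82 CPM, and in clone 31 7.48, 2.35 and 1.73 CPM, for untreated, 24 h and 48 h. Both untreated libraries lay above all 4 auxin libraries. Syt1, the calcium sensor of fast release (ENSMUSG00000035864, chr10:108497650-109010982, minus strand), had 6.1, 2.06 and 0.678 CPM in clone 31 (244, 87 and 18 counts). In clone 30 it had 0.642, 0.1 and 0.259 CPM (16, 4 and 8 counts). It was highest before auxin in both clones, but the groups overlapped because clone 30 was so low throughout. Snap25, a SNARE protein of the presynaptic membrane (ENSMUSG00000027273, chr2:136713453-136782428, plus strand), had 0.883, 0.5 and 1.1 CPM in clone 30 and 1.45, 1.16 and 1.85 CPM in clone 31. It was lowest at 24 h and highest at 48 h in both clones, and each clone 31 level exceeded each clone 30 level.

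**Figure D2:**
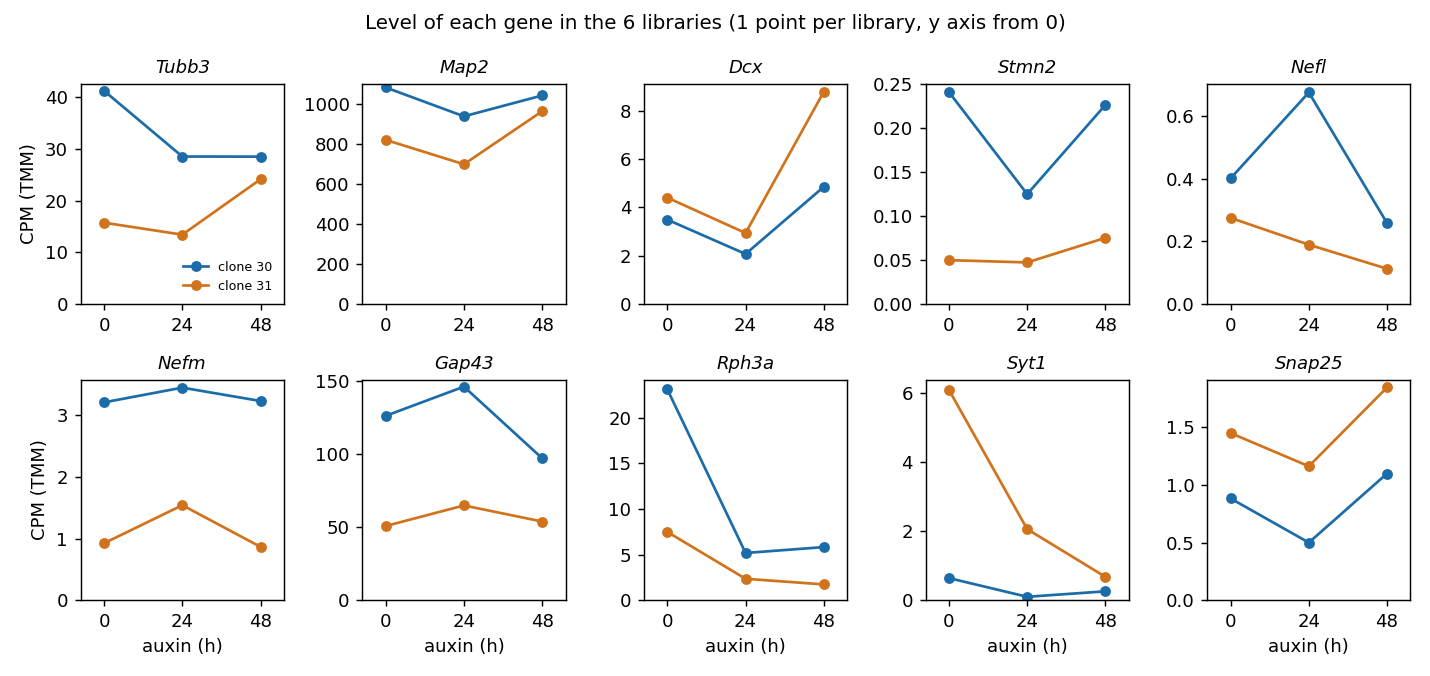
CPM of each gene (TMM library sizes, y axis from 0) against hours of auxin, 1 point per library, with lines joining the libraries of clone 30 and of clone 31. Rph3a stands at 23.1 and 7.48 CPM before auxin and at no more than 5.82 CPM after it, and Gap43, Nefm and Tubb3 have clone 30 above clone 31 throughout.

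After 48 h of auxin against untreated cells, Rph3a stood at 0.252 of its untreated level in clone 30 (95% exact interval 0.212 to 0.299) and at 0.232 in clone 31 (0.166 to 0.317). Syt1 stood at 0.111 (0.0648 to 0.179) in clone 31 and at 0.403 (0.149 to 0.997) in clone 30. Dcx went the other way in both clones, at 1.39 (1.06 to 1.83) and 1.99 (1.63 to 2.44) times its untreated level in clones 30 and 31. In RNA from whole cultures, fewer cells of a type and less RNA per cell cannot be told apart.

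On treatment group alone, the edgeR quasi-likelihood test with Benjamini-Hochberg adjustment over all 16007 tested genes called 0 of the 9 genes at 48 h against untreated, 0 of them at an unadjusted p of 0.05, where it called 0% of all genes (20.7% unadjusted). DESeq2 on group alone called 0 of the 9 as well, where it called 12.6% of all genes. With the clone as a replicate block, 2 of the 9 genes were lower and 0 were higher, against 9.08% and 8.35% of all tested genes. Rph3a fell by 2.02 ± 0.20 (SE) on the log2 scale with the block (edgeR adjusted p = 0.0238), lower in 2 of 2 clones, and its adjusted p ran from 1.97e-11 to 0.62 over the 21 alternatives run. The blocked value was −2.12 with an edgeR adjusted p of 0.0712 once the clone 31 untreated library was left out, and the adjusted p was 0.0618 when just the 4 libraries of the comparison were used. Syt1 fell by 2.62 ± 0.56 (SE) with the block (edgeR adjusted p = 0.0354), with a range of 0.000212 to 0.949 over its alternatives. Its call was lost on leaving out clone 31 at 48 h (log2 change −1.06, edgeR adjusted p = 0.245) or clone 31 untreated (−2.37, 0.245), and with just those 4 libraries (0.0646).

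Dcx missed the threshold at 48 h against untreated, with a blocked log2 change of 0.75 ± 0.20 (SE) and an edgeR adjusted p of 0.0541. Upper-quartile scaling moved that to 0.0498 and leaving out clone 30 at 48 h to 0.00406 (log2 change 0.98), in a range up to 0.714 over its alternatives. Tubb3 had 0.05 ± 0.27 (edgeR adjusted p = 0.916), and its sign hung on the 48 h library used. Left with clone 31 at 48 h it had 0.55 (0.0121), and left with clone 30 it had −0.48 (0.0346). Nefl, Nefm, Gap43, Map2 and Snap25 had blocked log2 changes between −0.95 (Nefl) and 0.34 (Snap25). The median over the 9 was −0.01, beside 0.02 over all tested genes. Dcx was higher without overlap of the groups, and Nefl and Rph3a were lower without overlap. Among all tested genes 25.7% were higher and 25.7% lower in this way, which for 9 genes is close to the 1 and 2 found. In Tubb3, Map2, Nefm and Gap43, 4 of the 9 genes, the clones moved in opposite directions at 48 h, which 27.8% of all tested genes did.

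**Figure D3:**
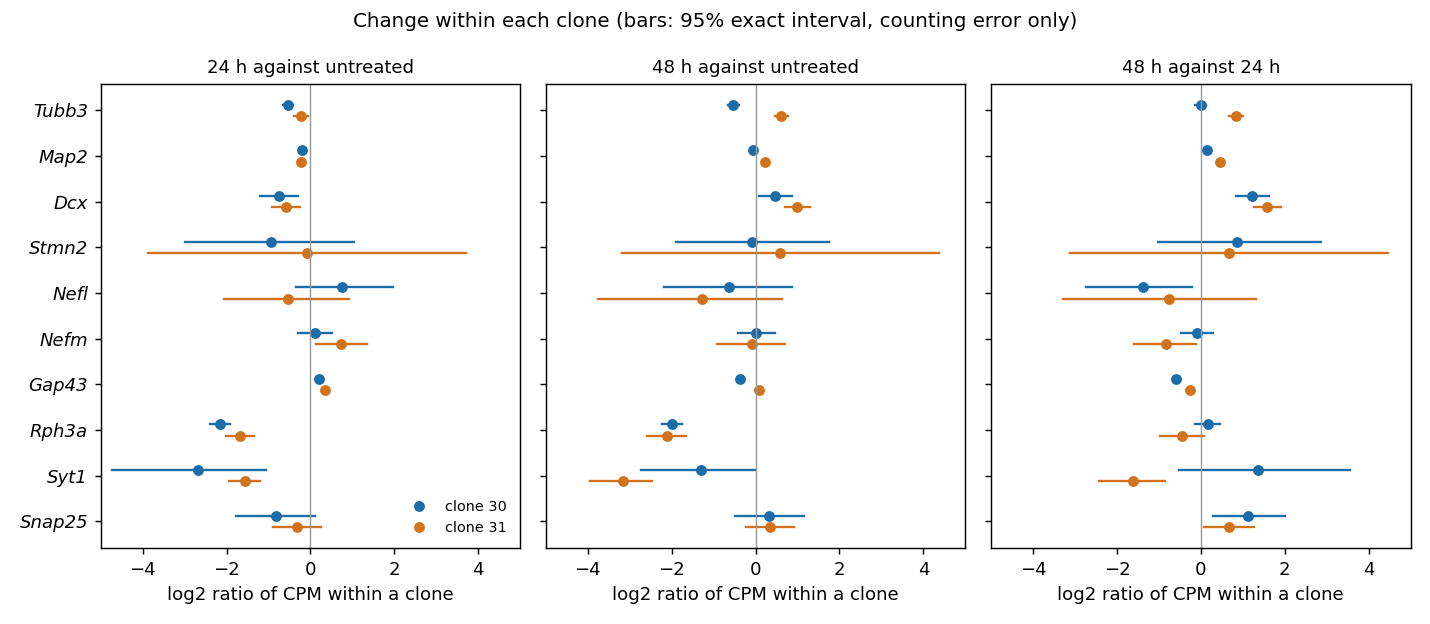
Log2 ratio of CPM within each clone for the 3 comparisons of auxin times, 1 point per gene and clone; bars are 95% exact intervals for counting error only. Rph3a and Syt1 lie left of 0 in both clones at 24 h and at 48 h against untreated, and Dcx lies right of 0 in both clones at 48 h against 24 h.

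At 24 h against untreated, Rph3a stood at 0.224 of its untreated level in clone 30 and at 0.314 in clone 31. Neither the edgeR test on treatment group alone nor the blocked one called any of the 9 genes at this time, and both called 0% of all genes. At an unadjusted p of 0.05, edgeR on group alone had 0 of the 9 genes (1.50% of all genes) and the blocked test had 3, Dcx, Rph3a and Syt1 (6.17% of all genes). DESeq2 with the block called Rph3a alone, with a log2 change of −1.92 ± 0.26 (SE) and an adjusted p of 9.85e-10, where it called 0.266% of all genes. The blocked edgeR value for Rph3a was −1.93 ± 0.20 (SE) with an adjusted p of 0.204. Its range over 21 alternatives was 9.85e-10 to 1.0, and edgeR called it at 0.00133 without the 48 h library of clone 30, at 0.00118 without that of clone 31 and at 0.00282 with the 4 libraries compared.

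Syt1 had a blocked log2 change of −1.73 ± 0.47 (SE) at 24 h (edgeR adjusted p = 0.712, range over alternatives 0.0208 to 1.0). Leaving out either 48 h library brought it under the threshold, at 0.0224 without clone 30 and 0.0208 without clone 31, as did the 4 libraries compared (0.0318). Dcx and Rph3a were lower at 24 h without overlap of the groups, as were 12.4% of all genes, and 0 of the 9 were higher in this way, against 13.0% of all genes. Tubb3, Map2, Dcx, Rph3a, Syt1 and Snap25, 6 of the 9, were lower in both clones, as were 29.5% of all tested genes. The median blocked log2 change of the 9 genes was −0.40, beside 0.01 over all genes.

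Rph3a and Syt1 were the 2 genes of the list that the blocked edgeR test called lower at 48 h against untreated, so their promoter windows are shown. RefSeq promoter windows (GRCm38.p6, the 250 bases before each annotated start) were matched for 5 of the 10 genes, with 9 starts in all: Rph3a, Syt1, Map2, Tubb3 and Dcx. Snap25, Gap43, Nefl, Nefm and Stmn2 had no entry. The sequences below run 5′ to 3′ on the minus strand without annotated exon bases, and capitals mark the E-box CAGCTG.

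Rph3a, chr5:121010093-121010342: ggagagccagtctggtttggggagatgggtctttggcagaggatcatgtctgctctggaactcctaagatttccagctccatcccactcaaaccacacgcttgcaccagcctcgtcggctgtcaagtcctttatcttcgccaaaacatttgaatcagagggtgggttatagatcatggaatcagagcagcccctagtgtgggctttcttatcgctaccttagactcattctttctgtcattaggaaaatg

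Rph3a, chr5:121009539-121009788: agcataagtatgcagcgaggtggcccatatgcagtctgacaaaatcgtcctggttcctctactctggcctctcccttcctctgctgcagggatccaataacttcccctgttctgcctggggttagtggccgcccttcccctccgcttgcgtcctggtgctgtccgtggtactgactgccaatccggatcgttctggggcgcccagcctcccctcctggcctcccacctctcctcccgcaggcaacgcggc

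Rph3a, chr5:121008543-121008734: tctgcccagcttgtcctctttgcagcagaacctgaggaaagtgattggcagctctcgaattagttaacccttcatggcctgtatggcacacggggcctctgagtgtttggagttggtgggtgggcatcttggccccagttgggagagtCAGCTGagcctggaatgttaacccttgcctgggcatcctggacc

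Syt1, chr10:109010983-109011225: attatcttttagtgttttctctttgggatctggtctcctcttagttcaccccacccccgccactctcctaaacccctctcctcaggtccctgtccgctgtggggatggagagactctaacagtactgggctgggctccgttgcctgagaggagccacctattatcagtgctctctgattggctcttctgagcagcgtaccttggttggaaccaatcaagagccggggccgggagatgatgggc

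Syt1, chr10:109009112-109009361: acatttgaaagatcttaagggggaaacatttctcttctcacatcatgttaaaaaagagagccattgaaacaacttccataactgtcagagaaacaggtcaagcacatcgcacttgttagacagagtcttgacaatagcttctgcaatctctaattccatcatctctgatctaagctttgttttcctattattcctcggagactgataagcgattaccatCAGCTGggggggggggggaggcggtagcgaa

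Searched on both strands were the RBPJ core GTGGGAA, the E-boxes CAGCTG and CAGATG, and the left part of the RE1 site, TTCAGCACC. Among 32536 windows of 250 bases, 5.43% held GTGGGAA, 13.1% CAGCTG, 14.4% CAGATG and 0.301% TTCAGCACC. In the 9 windows of the list, CAGCTG was found once for Rph3a, 102 bases before the start at 121008484, and once for Syt1, 31 bases before the start at 109009111. The other motifs had no match in the 9 windows. A match is a description of letters only, and counts per gene do not show which start was used.

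Between 24 h and 48 h of auxin, Dcx was the 1 gene of the list that the blocked test called. It was 2.34 times as high at 48 h in clone 30 (95% exact interval 1.78 to 3.09) and 2.99 times as high in clone 31 (2.39 to 3.74). On treatment group alone edgeR called 0 of the 9 genes, 1 of them (Dcx) at an unadjusted p of 0.05, where it called 0% of all genes (25.0% unadjusted), and DESeq2 on group alone called Dcx (adjusted p = 0.0122), where it called 18.3% of all genes. With the block edgeR called Dcx, which rose by 1.41 ± 0.20 (SE) on the log2 scale with an adjusted p of 0.0162 (0.111 on group alone). In that test 12.3% of all genes were higher and 13.9% lower, or 1961 and 2224 genes, and upper-quartile scaling gave 2549 and 1726. The adjusted p of Dcx ran from 4.28e-05 to 0.365 over its 21 alternatives. The call was lost on leaving out clone 30 at 24 h (1.45, edgeR adjusted p = 0.113) or clone 31 at 24 h (1.35, 0.135). In the same blocked test, 6 of 11 NPC markers (Sox2 and Sox9 among them), 5 of 8 astrocyte markers and 4 of 5 oligodendrocyte lineage markers were higher at 48 h than at 24 h. Of these lists Nes alone was lower, and of 10 neuron markers 0 were higher and 1, Neurod1, was lower. The part of these markers in the rise of Dcx was not tested.

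Gap43 was lower at 48 h than at 24 h in both clones, at 0.665 (0.636 to 0.695) of its 24 h level in clone 30 and 0.831 (0.779 to 0.886) in clone 31. DESeq2 with the block called it (log2 change −0.43 ± 0.17 (SE), adjusted p = 0.0361) among 16.0% of all genes called lower, where edgeR with the block did not (−0.43 ± 0.13, adjusted p = 0.0577). Its adjusted p ran from 0.00281 to 0.938 over the alternatives. Dcx and Map2 were higher without overlap of the groups, as were 28.4% of all genes, and 0 were lower in this way, against 27.9%. Dcx, Map2 and Snap25 were higher in both clones, as were 41.1% of all genes, and Gap43, Nefl and Nefm were lower in both, as were 38.6%. This comparison shares its 48 h libraries with the one against untreated cells, so the 2 are not independent.

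Between the clones, Gap43, Nefm, Rph3a and Tubb3 were lower and Syt1 was higher in clone 31. With treatment group and clone as terms, 5 of the 9 genes differed, 1 higher and 4 lower in clone 31, against 7.54% and 8.58% of all tested genes. Nefm was 3.47, 2.24 and 3.73 times as high in clone 30 as in clone 31 when untreated, at 24 h and at 48 h, a clone difference of −1.58 ± 0.22 (SE) in log2 (edgeR adjusted p = 0.00948). Gap43 was 2.49, 2.25 and 1.8 times as high in clone 30 at those times (−1.11 ± 0.11, edgeR adjusted p = 0.00339). These 2 calls held in all 11 alternatives run, with adjusted p up to 0.0376 for Nefm and 0.0266 for Gap43.

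Rph3a was 3.09, 2.2 and 3.36 times as high in clone 30, a log2 difference of −1.50 ± 0.16 (SE) with an edgeR adjusted p of 0.00492. Syt1 ran the other way, with clone 31 at 9.5, 20.6 and 2.62 times the level of clone 30 (3.09 ± 0.46, edgeR adjusted p = 0.0114). The 24 h ratio of Syt1 rests on 4 counts in clone 30 and has an exact interval of 7.78 to 77.4. With clone as the only term neither gene was called (adjusted p = 0.397 for Rph3a and 0.144 for Syt1), and each was called in the other 10 alternatives.

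Tubb3 was 2.62 times as high in clone 30 when untreated, 2.12 times at 24 h and 1.18 times at 48 h (exact interval 1.07 to 1.31). Its log2 difference of −0.91 ± 0.22 (SE) passed narrowly (edgeR adjusted p = 0.0448). The call was lost in 6 of 11 alternatives, among them leaving out clone 30 untreated (−0.66, 0.0947), clone 31 untreated (−0.66, 0.0969), clone 30 at 24 h (−0.81, 0.219) or clone 31 at 24 h (−0.81, 0.218). Snap25 (0.88 ± 0.23, edgeR adjusted p = 0.0513), Dcx (0.57 ± 0.17, 0.0718), Nefl (−1.22 ± 0.39, 0.0923) and Map2 (−0.31 ± 0.10, 0.0977) were not called. Snap25 and Map2 passed on leaving out a 48 h library, at 0.0301 and 0.00753 without clone 30 and at 0.0309 and 0.00566 without clone 31. DESeq2 called 6 genes, where it called 17.1% of all genes, with Map2 beside the 5 (adjusted p = 0.0424). Syt1 and Snap25 were higher in clone 31 without overlap and Tubb3, Gap43 and Nefm were lower, where 11.6% of all genes were higher and 11.6% lower in this way. The neuron marker sum was 58.3 to 76.3 CPM in clone 30 and 41.6 to 47.3 CPM in clone 31, and the mesenchymal sum was higher in clone 31. Much of the gap in the neuron marker sum was Neurod1. Syt1, Snap25 and Dcx ran against the neuron marker sum. For Dcx, clone 31 stood at 1.26, 1.42 and 1.81 times clone 30 when untreated, at 24 h and at 48 h. The part of the neuron and mesenchymal markers in the clone differences was not tested.

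**Figure D4:**
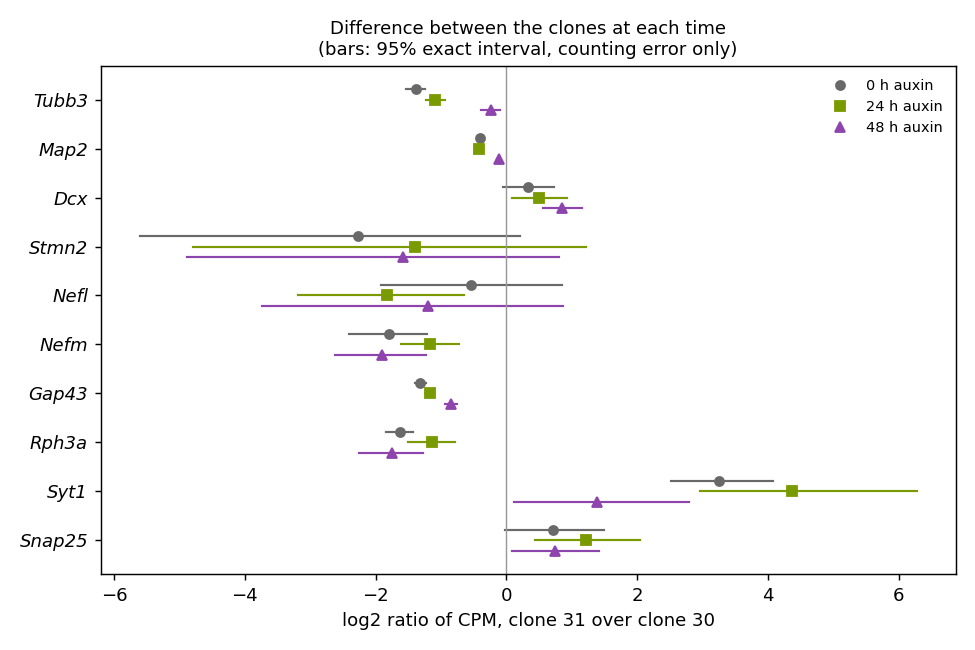
Log2 ratio of CPM of clone 31 over clone 30 at 0, 24 and 48 h of auxin, 1 point per gene and time; bars are 95% exact intervals for counting error only. Gap43, Nefm and Rph3a lie below 0 at each time and Syt1 above it, while Tubb3 comes near 0 at 48 h, where clone 30 is 1.18 times as high.

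Divided into parts, the spread of log2 CPM over the 6 libraries lay mostly between clones for Nefm (90.6% between clones, 5.88% between auxin times) and Gap43 (88.3% and 9.03%). For Dcx (19.0% and 78.1%) and Rph3a (38.7% and 60.1%) the larger part lay between auxin times. Tubb3 had 68.3% between clones and 19.7% in neither. With 1 library per clone and time, that last part mixes different movement of the clones over time with noise between libraries. The median over the 9 tested genes was 57.3% between clones and 34.1% between times, where the median over all tested genes was 20.9% and 54.7%. These shares are descriptions of 6 libraries without a test.

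Other genes of the same machinery gave a mixed picture at 48 h against untreated, read from the blocked edgeR test that called 8.35% of all genes higher and 9.08% lower. Of 21 tested microtubule genes 5 rose and 1 fell, with a median log2 change of 0.17. Map1a, a microtubule-associated protein of dendrites, rose by 0.85 ± 0.11 (SE) in log2 (edgeR adjusted p = 0.0238), from 148.5 and 140.6 CPM to 235.8 and 287.4 CPM in clones 30 and 31. Tppp3, a tubulin polymerization-promoting protein, rose by 1.85 ± 0.32 (adjusted p = 0.0264), and the beta-tubulin Tubb2b rose by 0.76 ± 0.16 (0.0349). Dpysl5, of the collapsin response mediator family (0.84 ± 0.12, 0.0238) and the kinesin Kif1a also rose, and the kinesin Kif5c fell by 1.31 ± 0.31 (0.0419). On treatment group alone edgeR called 0 genes of any list, and DESeq2 on group alone was not read for the lists.

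Of the 2 tested neurofilament partners, the intermediate filament gene Prph rose by 1.58 ± 0.28 (edgeR adjusted p = 0.0275) to 0.647 and 4.14 CPM, and Ina, for alpha-internexin, had −0.66 ± 0.21 (0.0791). Of 11 growth cone and axon genes 2 rose and 0 fell, with a median of 0.37. These were the adhesion molecule Nrcam (1.25 ± 0.19, 0.0246), from 80.5 and 67.2 to 143.9 and 210.1 CPM, and Fez1, an axon outgrowth and transport gene (0.60 ± 0.13, 0.0342).

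Of 31 vesicle and exocytosis genes 3 rose and 4 fell, with a median of 0.05. The SNARE gene Vamp1 (1.32 ± 0.17, edgeR adjusted p = 0.0238) and the synaptotagmin Syt11 were among those that rose. The vesicle GTPases Rab3c (−3.25 ± 0.44, 0.0238) and Rab3a (−1.19 ± 0.21, 0.0275), the active zone gene Rims1 (−1.58 ± 0.29, 0.0286) and the complexin Cplx2 fell. Rab3a went from 17.2 and 25.8 CPM to 10.1 and 8.51 CPM, in clones 30 and 31. Rabphilin-3A binds RAB3 proteins. A further RAB3 gene of the list, Rab3b, was not called, with 15.65 and 15.63 CPM untreated and 8.50 and 14.47 CPM at 48 h in clones 30 and 31.

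Of 10 repressors of neuronal genes 2 fell and 0 rose at 48 h, with a median of −0.14. These were Ptbp1, a splicing repressor of neuronal exons (−0.55 ± 0.10, edgeR adjusted p = 0.0268), and Sin3a, a corepressor scaffold (−0.49 ± 0.08, 0.0267). Of 10 tested neuron markers 2 rose, Elavl4 and Nhlh1, and 0 fell. Nhlh1 remained at 1.07 and 0.0377 CPM at 48 h. The 9 astrocyte markers summed to 1334 to 1935 CPM untreated and 2323 to 2522 CPM at 48 h, with 5 of 8 tested ones higher and 0 lower. The 8 oligodendrocyte lineage markers went from 159.1 to 164.6 CPM untreated to 336.7 to 620.4 CPM, with 3 of 5 tested ones higher, while Mog and Mag stayed at or under 0.0647 CPM. Of 11 tested NPC markers 3 rose at 48 h (Egfr, Sox2 and Sox9) and 0 fell. At 24 h the astrocyte sum was 1503 to 1727 CPM and the oligodendrocyte lineage sum 104.0 to 192.9 CPM, and both ranges overlapped the untreated ones. Rph3a then stood at 0.224 and 0.314 of its untreated level in clones 30 and 31. Syt1 stood at 0.156 (4 against 16 counts) and 0.338 of its own. The part of the glial markers in the lower levels of these 2 genes was not tested.

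**Figure D5:**
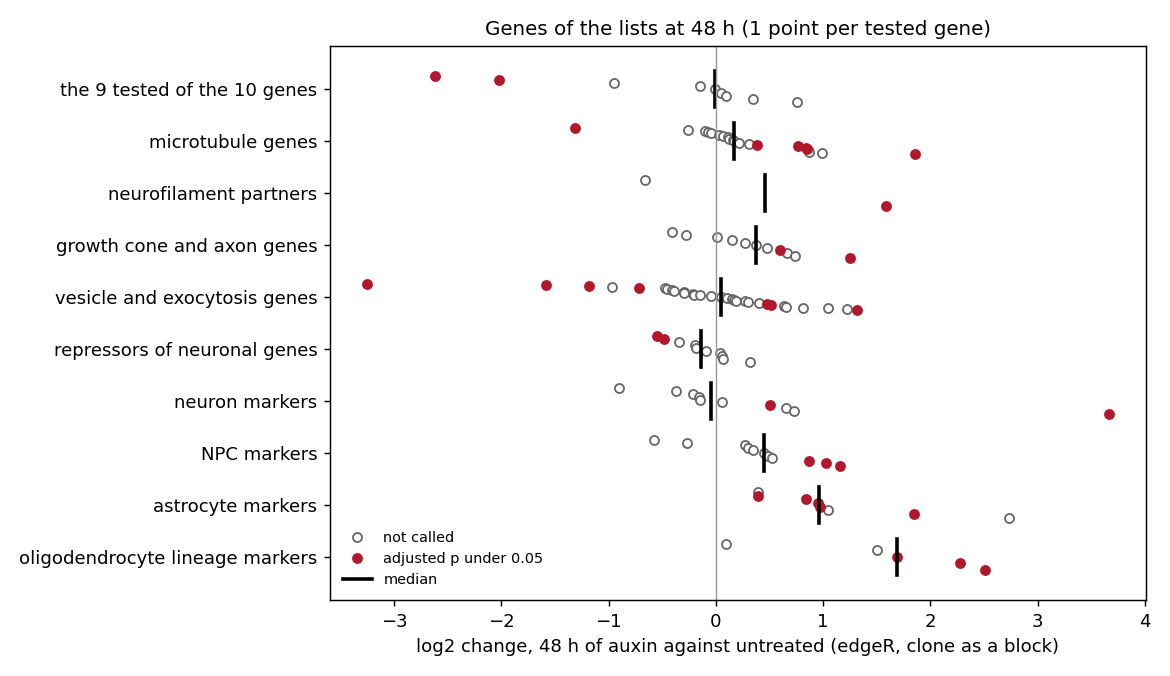
Log2 change at 48 h of auxin against untreated (edgeR, clone as a block), 1 point per tested gene of each list; filled points passed the adjusted p of 0.05 and black bars are medians. Rph3a and Syt1 are the filled points of the 9 tested genes, at −2.02 and −2.62, and the astrocyte and oligodendrocyte lists lie to the right of 0.

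Between the clones, where 7.54% of all tested genes were higher in clone 31 and 8.58% lower, 4 of 21 microtubule genes were higher in clone 31 (Dpysl2, Dpysl3, Map1b and Stmn1) and 5 were lower (Dpysl5, Kif5a, Kif5c, Mapt and Tubb4a). The axonal microtubule protein Mapt was at 14.9, 12.1 and 19.8 CPM in clone 30 and at 2.55, 2.25 and 7.99 CPM in clone 31 (log2 difference −2.06 ± 0.27 (SE), edgeR adjusted p = 0.0077). Mapt, Map1b and their neighbours in these lists that the text names for the clones were chosen after their values were seen. Of 11 growth cone genes 2 were lower, the adhesion molecules Cntn2 and Nfasc, and of 31 vesicle genes 2 were higher (Sv2a among them) and 3 lower (Sv2c, Syn1 and Syt11), which is close to the share over all genes. Of 10 tested neuron markers 4 were lower in clone 31 (Elavl3, Eomes, Neurod1 and Nhlh1) and 0 were higher, with a median of −0.68 beside 0.01 over all genes. Elavl3, Eomes and Nhlh1 were near the floor, at 0.445, 0.229 and 0.293 CPM on average over all libraries. Nhlh1 had 0 CPM in clone 31 untreated and at 24 h. DESeq2 with the block did not call Eomes (adjusted p = 0.0885). Neurod1, a transcription factor of newborn neurons, was at 13.2, 27.8 and 12.9 CPM in clone 30 and at 2.1, 2.75 and 1.55 CPM in clone 31.

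For genes of the list with at least 1 CPM on average, the gene with the nearest profile was sought among 13293 genes, by the root mean square difference of centred log2 CPM over the 6 libraries. Dcx was nearest to Ildr2 (0.0812), which had 99.2, 55.9 and 116.2 CPM in clone 30 and 111.4, 82.2 and 223.9 CPM in clone 31. Gap43 was nearest to Nwd1 (0.0942), Nefm to Cacna1a (0.174), Tubb3 to Smpd3 (0.116), Map2 to Ggh (0.0398) and Snap25 to Map3k1 (0.111). Syt1 had no close neighbour, with Adgrg2 nearest at 0.673. Within the list, Gap43 and Nefm were nearest to each other (0.313), as were Dcx and Snap25 (0.312) and Tubb3 and Map2 (0.351). Of all 13293 genes, 1.38% were nearer to Gap43 than Nefm was, 1.2% were nearer to Dcx than Snap25 was, 3.16% were nearer to Tubb3 than Map2 was and 55.95% were nearer to Map2 than Tubb3 was.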

How the data were processed

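Libraries were made with the TruSeq RNA kit v2 from RNA whose RIN score exceeded 9 and read from both ends over 100 bases, per the labels' protocols. What the authors deposited are raw counts of read pairs by gene, from featureCounts 1.6.1 with reverse strand counting (-s 2) and Ensembl 92 gene models, per the file headers. The files also give exon lengths in bp, per the file headers. The build is mm10, and R 3.4.2 and DESeq2 are also named, per the submitters' processing notes. The aligner is not given in the labels used here. Symbols were matched for 53620 of 53801 identifiers.

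Genes were filtered with filterByExpr by treatment group (minimum count 10, minimum total 15), which kept 16007, normalized with TMM and tested with edgeR 4.0.16 (quasi-likelihood, robust, 2-sided) in R 4.3.3 on all 6 libraries, with treatment group alone as the term. Benjamini-Hochberg adjustment ran over all tested genes at 0.05. The clones were compared with group and clone as terms. An SE beside an edgeR value was taken as the size of the log2 change over the root of its F. The clone number in the sample titles is shared by libraries of 1 subclone. Over the 16007 genes, same-numbered libraries deviated from their group means together (Pearson's r 0.803, 0.58 and 0.707 for the 3 pairs of groups), so the numbers pair them. The common biological coefficient of variation was 0.271 on 3 residual degrees of freedom without the block and 0.121 on 2 with it. Ratios within a clone or time compare 1 library with 1 and have no test.

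Alternatives were DESeq2 1.42.0, DESeq2 size factors, upper-quartile scaling, no filter, the clone as a replicate block, the 4 libraries compared and leaving out each library. The test was run on simulated data first. The members, the lists and the motifs were chosen with earlier results of these data known. Named were all 10 genes, up to 4 genes of each list with at least 1 CPM and the smallest p at 48 h with the block, defining markers, and the nearest profile of each gene with at least 1 CPM (prior count 2). List genes named beyond that, such as those called in a list or between the clones, were chosen after their values were seen. Some genes that these rules name are left out of the text.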

Additional observations from a re-analysis of the deposited data

Results flagged for a closer look

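In 9 cases the clones moved in opposite directions under the same contrast. Each clone had 1 library per time, and the difference was not tested. At 48 h against untreated, Tubb3 had a log2 ratio of −0.53 in clone 30 and 0.62 in clone 31, from 41.2 to 28.5 CPM in one and from 15.7 to 24.1 CPM in the other. Gap43 had −0.38 and 0.085 in this contrast, Map2 −0.054 and 0.23, Nefm 0.0099 and −0.095, and Stmn2 −0.0896 and 0.59, the last on 2 to 7 counts per library. At 48 h against 24 h, Tubb3 had −0.000998 and 0.84, Rph3a 0.17 and −0.44, and Syt1 1.37 and −1.61, where Syt1 in clone 30 went from 4 to 8 counts. At 24 h against untreated, Nefl had 0.75 and −0.54, on 27 counts or fewer in each library.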

How the results depend on the processing

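With the clone as a replicate block, the count of the 9 genes called was 0 at 24 h, 2 at 48 h against untreated and 1 at 48 h against 24 h, where treatment group alone gave 0 each time. DESeq2 with the block gave 1, 2 and 2, upper-quartile scaling with the block 3 at 48 h against untreated and 1 against 24 h, and the block on the 4 libraries compared 2, 0 and 2. DESeq2 without the block called 1 at 48 h against 24 h. Leaving out 1 library, with the block or not, the counts ran from 0 to 2, from 0 to 4 and from 0 to 4. Between the clones, clone as the only term gave 2 against 5, and leaving out a library gave 4 to 7. Over all tested genes, treatment group alone called 0 in each auxin comparison. At 24 h DESeq2 called 6, DESeq2 with the block 41 and the block on 4 libraries 140, and leaving out a library gave 0 to 263. At 48 h against untreated the counts were 1669 (DESeq2), 216 (no filter), 2790 (block), 3357 (block, DESeq2), 2756 (block, upper-quartile) and 3 (block, 4 libraries), and 0 to 6615 without a library. At 48 h against 24 h they were 2530, 833, 4185, 4271, 4275 and 4156 in that order, and 0 to 7449 without a library. Between the clones, clone alone called 566 against 2581, and leaving out a library gave 641 to 5041.

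Directions reversed for 3 log2 changes near 0 with all 6 libraries or the 4 compared. Nefm at 48 h against untreated went from 0.0084 to −0.0045 (DESeq2), −0.012 (block), −0.024 (block, DESeq2) and −0.023 (block, 4 libraries). Rph3a at 48 h against 24 h went from 0.01 to −0.094 (block), −0.104 (block, DESeq2), −0.014 (block, upper-quartile) and −0.0905 (block, 4 libraries). Tubb3 at 48 h against untreated went from −0.11 to 0.048 (block), 0.052 (block, DESeq2), 0.086 (block, upper-quartile) and 0.0483 (block, 4 libraries). Leaving out 1 library reversed a direction in 44 of the fits, kept direction and side of the threshold in 300, and gave these ranges where it reversed. At 24 h they were −0.44 to 1.06 (Gap43), −0.80 to 1.01 (Nefl), −0.40 to 1.43 (Nefm), −5.04 to 0.76 (Syt1) and −1.08 to 0.41 (Tubb3). At 48 h against untreated they were −0.74 to 0.56 (Gap43), −0.11 to 0.28 (Map2), −1.23 to 1.14 (Nefm), −0.11 to 0.73 (Snap25) and −0.65 to 0.73 (Tubb3). At 48 h against 24 h they were −0.96 to 0.21 (Gap43), −1.51 to 0.41 (Nefm), −1.10 to 0.68 (Rph3a), −2.15 to 2.17 (Syt1) and −0.12 to 0.96 (Tubb3). With the block, leaving out a library kept the sign at 24 h for Gap43 (0.14 to 0.44), Nefm (0.082 to 0.77) and Syt1 (−3.08 to −1.35). The sign also held for Snap25 at 48 h against untreated (0.19 to 0.46). At 48 h against 24 h it held for Gap43 (−0.64 to −0.21) and Nefm (−0.80 to −0.12). The other ranges listed here held both signs with the block too. Without the block, leaving out a library leaves the clones unbalanced between the groups, and the cause of these shifts was not tested. Depth limits Nefl, with at most 27 counts in a library, Stmn2, with at most 7, and Syt1 in clone 30, with at most 16.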
